A study of Mus musculus with 3 samples.

Results

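The nuclear genes of the respiratory chain were described across the cell types of the mouse gallbladder. Members were all gene symbols of the deposited matrix that begin with Nduf, Uqcr or Atp5, together with Sdha, Sdhb, Sdhc, Sdhd, Cyc1 and the Cox4 to Cox8 subunit genes, with at least 20 unique molecular identifiers (UMIs, counted cDNA molecules) over all barcodes. Of 31053 genes, 94 gene identifiers matched and 91 reached the minimum. The 3 below it were Cox7b2 with 4 UMIs, Cox8c with 0 and a second Atp5o identifier with 0. The members were 80 subunit genes (36 of complex I, 4 of complex II, 9 of complex III, 16 of complex IV and 15 of complex V), 9 assembly or accessory factors, the Ndufa4 paralogue Ndufa4l2 and the supercomplex factor Cox7a2l.

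The respiratory chain sits in the inner mitochondrial membrane, where complexes I and II pass electrons from NADH and succinate to ubiquinone, complex III passes them to cytochrome c, and complex IV to oxygen. Complexes I, III and IV pump protons, and complex V, the ATP synthase, uses the gradient to make ATP. Most subunits are encoded in the nucleus and a few core subunits of complexes I, III, IV and V in mitochondrial DNA, and several complex IV subunits have isoform genes that differ between tissues. The gallbladder epithelium concentrates bile by ATP-driven ion transport, and the muscle layer of the wall contracts to empty it.

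Gallbladders of male C57BL/6 mice were dissociated with trypsin, and 3′ transcript ends of single cells were counted in droplets. The control mice had received vehicle by gavage during 6 weeks, and the exposed mice nanoplastics, plastic particles below the micrometre scale, during either 3 or 6 weeks. A group was represented by 1 library of 10 gallbladders pooled before sequencing, and age and dose are not given in the sources used here. Barcodes carry a library number that neither the files nor the labels tie to a group, so exposed and control mice were not compared, no test was run, and library and group cannot be told apart. Libraries are numbered 1 to 3 below, are not replicates, and are given by their values.

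Library 1 held 72943584 UMIs, library 2 121349261 and library 3 58172348, of which members took 2.91%, 3.65% and 2.84%. Kept cells numbered 4263, 10933 and 9797, with a median depth of 10381, 9330 and 2288 UMIs. Cells were sorted into classes by marker genes, none of them a member, and 22067 of 24993 kept cells (88.3%) fell into a class. Of the 91 members 29 overlap another counted gene on the genome. Among the kept cells 43 barcode sequences occurred in more than 1 library. Library 1 stood apart in holding 2599 UMIs of rod photoreceptor genes, against 518 and 382, and 172 UMIs of Xist, against 18 and 28. In its macrophage-like class 104 of 400 cells carried 2 or more microglia markers, against 42 of 316 and 22 of 390. Median depth in that class was 5046.5, 3400.5 and 1622 UMIs. Microglia-marker UMIs over all barcodes were 3843, 2958 and 4755, the most in library 3. The part of depth in the counts of marked cells was not tested. Results were recomputed without library 1 and without the microglia-marked cells, and the part of the photoreceptor RNA was not tested.

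Levels are CPM, the UMIs of a gene over all cells of a class divided by all UMIs of that class and scaled to a total of 1000000, on a linear scale. A 3′ tag counts 1 molecule whatever its length, so levels were not divided by gene length. A gene or sum was called higher or lower in a class when it differed at least 1.5-fold from the median of the other classes and lay on the same side of that median in every library with at least 20 cells of the class. Genes were tested when the mean of the class level and that median reached 10 CPM. These calls describe the libraries and carry no p-value. There were 15 classes with at least 50 cells, from 9685 epithelial-like cells to 55 monocyte-like cells, and the names rest on the markers alone. None of the markers of the monocyte-like class was among its 10 leading genes, and its values are given with that limit.

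Epithelial-like cells held the highest sum of nuclear subunit genes for every complex. Their 80 subunit genes together reached 37599 CPM (34601, 39056 and 37844 CPM in libraries 1, 2 and 3), which was 2.85-fold the median of the other classes. By complex the epithelial-like level was 10139 CPM for complex I (2.73-fold), 638 CPM for complex II (2.43-fold), 5249 CPM for complex III (3.10-fold), 11491 CPM for complex IV (3.04-fold) and 10082 CPM for complex V (2.63-fold), all called higher. Tuft-like cells, 38 in number and too few for a class, held 34117.5 CPM of subunit genes. Among the classes, smooth muscle-like cells were second for every complex. Their subunit sum was 23513 CPM (24765, 27782 and 20984 CPM), 1.78-fold the median of the other classes, with 1.86-fold for complex I, 1.62-fold for complex II, 1.68-fold for complex III, 1.97-fold for complex IV and 1.54-fold for complex V. The complex V value of smooth muscle-like cells fell below the limit of the call without library 1, at 1.45-fold, and among cells of 2000 to 6000 UMIs, at 1.37-fold.

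Mesothelial-like cells, the covering of the outer surface, came next with 19213 CPM (16181, 21219 and 19864 CPM). Only their complex I sum was called higher, at 5867 CPM and 1.58-fold, while complexes II, III, IV and V stood at 1.28-fold, 1.38-fold, 1.43-fold and 1.38-fold. Without library 3 the complex I value was 1.34-fold, and complex IV was called higher without library 1 (1.54-fold) or without library 2 (1.56-fold). Among cells of 2000 to 6000 UMIs complex I was 1.06-fold, and complexes III and IV then lay below the median of the other classes, at 0.940-fold and 0.934-fold. The other 12 classes lay between 10020.5 CPM in the 68 Schwann and glia-like cells and 17094 CPM in the monocyte-like cells, and no complex sum in them was called higher. In Schwann and glia-like cells complexes IV and V were called lower, at 0.593-fold and 0.622-fold, where library 3 alone held at least 20 cells. Median depth was highest in epithelial-like cells, at 13358 UMIs, but did not otherwise order the classes, with 11970 UMIs in plasma cell-like cells (11564 CPM of subunit genes), 5292 in mesothelial-like, 4535 in smooth muscle-like and 1067 in neutrophil-like cells (13383 CPM). Plasma cell-like cells held 344521 CPM of Igkc, 122442 CPM of Igha and 52663 CPM of Jchain, genes of secreted antibody. Every CPM value of that class is a share of a total that includes this RNA. Among cells of 2000 to 6000 UMIs the epithelial-like folds stayed between 1.95 for complex V and 2.60 for complex II. That depth range kept 573 epithelial-like, 623 smooth muscle-like and 151 mesothelial-like cells, and only 12 Schwann and glia-like and 7 plasma cell-like cells.

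**Figure D1:**
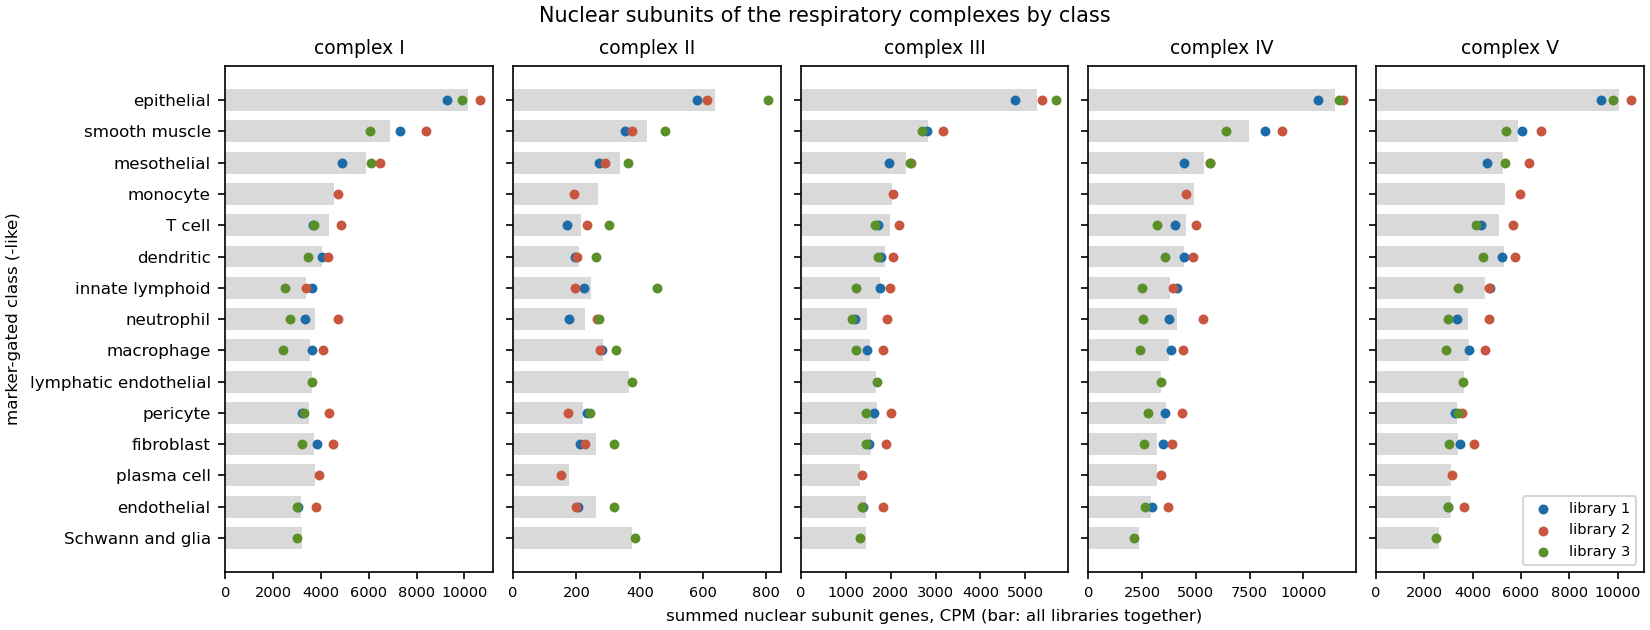
Summed nuclear subunit genes of each complex (CPM, linear axis of its own per complex) in the 15 marker-gated classes. Bars give all libraries together and points each library with at least 20 cells of the class; epithelial-like cells have the longest bar in all 5 panels and smooth muscle-like cells the second.

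The balance between complexes differed less than their level. In epithelial-like cells complex I gave 27.0% of subunit UMIs, complex II 1.70%, complex III 13.96%, complex IV 30.6% and complex V 26.8%. Smooth muscle-like cells had 31.7% in complex IV and 25.0% in complex V. The share of complex V was highest in dendritic-like cells, at 33.3% (33.3%, 33.5% and 32.9%), and in innate lymphoid-like cells, at 33.0%. Every library of these classes, and of the fibroblast-like, endothelial-like, neutrophil-like, macrophage-like and T cell-like classes, lay above the highest epithelial-like library, 27.0%.

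Member by member, 79 of the 82 members tested were called higher in epithelial-like cells, against 34.6% of all genes tested, and 0 were called lower, against 18.3%. The median log2 fold of the tested members was 1.51, and that of all genes tested 0.20. The called members were 35 of 36 complex I subunits, 4 of 4 of complex II, 9 of 9 of complex III, 12 of 16 of complex IV, 15 of 15 of complex V, 3 assembly factors and Cox7a2l. All tested subunits of complexes II, III, IV and V were therefore called; the 4 complex IV subunits not tested were the low isoforms Cox4i2, Cox6a2, Cox6b2 and Cox8b. The highest class was the epithelial-like one for 70 of the 91 members, and smooth muscle-like cells were highest for 7 and second for 41.

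Within complex I, Ndufb9, a membrane-arm subunit, was the most abundant, with 706 CPM in epithelial-like (617, 783 and 607 CPM) and 437 CPM in smooth muscle-like cells, whose libraries (476, 596 and 346 CPM) did not overlap with these. Ndufa13, also known as GRIM-19, stood at 618 CPM (562, 682 and 503 CPM) and Ndufa6, a subunit next to the acyl carrier protein, at 487 CPM. The subunits of the NADH-binding tip were lower, with 105 CPM for Ndufv1 and 189 CPM for Ndufv2. The exception among the 36 was Ndufa1, with 240 CPM in epithelial-like cells (259, 224 and 261 CPM), 295 CPM in mesothelial-like and 389 CPM in plasma cell-like cells. Ndufa11 was highest in smooth muscle-like cells, at 310 CPM (320, 406 and 262 CPM) against 206 CPM in epithelial-like cells (181, 224 and 187 CPM), and the libraries of these classes did not overlap. Ndufa2 was the most even subunit of complex I, its highest class being 1.61-fold the median of all classes, with 441 CPM in epithelial-like and 413 CPM in smooth muscle-like cells.

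The 8 complex I assembly factors of the rule were low. Ndufaf8 was the most abundant at 105 CPM in epithelial-like cells (94.0, 103 and 131 CPM). Ndufaf4 did not peak there, with 31.4 CPM in epithelial-like, 38.4 CPM in smooth muscle-like and 38.8 CPM in lymphatic endothelial-like cells. Ndufaf6 was highest in smooth muscle-like cells, at 12.9 CPM, and Ndufaf5, the lowest, at most 6.77 CPM in T cell-like cells.

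Complex II has 4 nuclear subunits and no mitochondrially encoded one. In epithelial-like cells the flavoprotein Sdha stood at 201 CPM, the iron-sulphur subunit Sdhb at 140 CPM, and the membrane anchors Sdhc and Sdhd at 129 and 169 CPM. Over all libraries together Sdhc was nearly as high in smooth muscle-like cells, at 126 CPM. Within each library it was lower there, at 94.5, 78.3 and 164 CPM beside 119, 116 and 187 CPM in epithelial-like cells. The ranges over libraries overlapped. Library 3, the source of most smooth muscle-like cells, was highest for Sdhc in 10 of 11 classes. Sdhd had the larger epithelial-like excess, with 70.0 CPM in smooth muscle-like cells.

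Of the complex III subunits, the hinge protein gene Uqcrh led with 1506 CPM in epithelial-like cells (1318, 1475 and 1905 CPM), and smooth muscle-like cells had 803 CPM. Uqcr11 and Uqcr10, both very small subunits, had 818 and 775 CPM in epithelial-like cells, with epithelial-like folds of 4.02 and 4.03. Cytochrome c1 (Cyc1) and the Rieske iron-sulphur protein (Uqcrfs1) carry electrons within the complex and had folds of 3.86 and 3.26. The core proteins Uqcrc1 and Uqcrc2 had folds of 3.00 and 3.01.

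Complex IV held the most abundant member, Cox8a, with 2155 CPM in epithelial-like cells (1980, 2321 and 1917 CPM), and smooth muscle-like cells had 1191 CPM (1474, 1695 and 824 CPM). Cox7c had 1493 CPM and Cox4i1, the common isoform of the largest nuclear subunit, 1396 CPM in epithelial-like cells. Cox5b had the largest epithelial-like fold of the subunits without an isoform partner, 4.10, with 905 CPM (848, 982 and 754 CPM). Cox6c was instead highest in smooth muscle-like cells, with 1537 CPM there (1696, 1791 and 1343 CPM) and 1324 CPM in epithelial-like cells (1232, 1343 and 1412 CPM), where the libraries overlapped.

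Complex V subunits of the catalytic head, Atp5a1 and Atp5b, had 616 and 686 CPM in epithelial-like cells. There the small subunits Atp5e and Atp5l reached 968 and 942 CPM. Atp5e and Atp5l had the lowest epithelial-like folds of the complex, 1.75 each. Atp5g1, Atp5g2 and Atp5g3 encode the same mature protein, the c subunit of the rotor ring, behind different import signals. Epithelial-like cells held 502, 1000 and 708 CPM of them. In dendritic-like cells Atp5g2 made up 61.4% of the Atp5g UMIs. The factor Atp5s was highest in Schwann and glia-like cells, at 34.0 CPM, a value that rests on 3 UMIs.

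**Figure D2:**
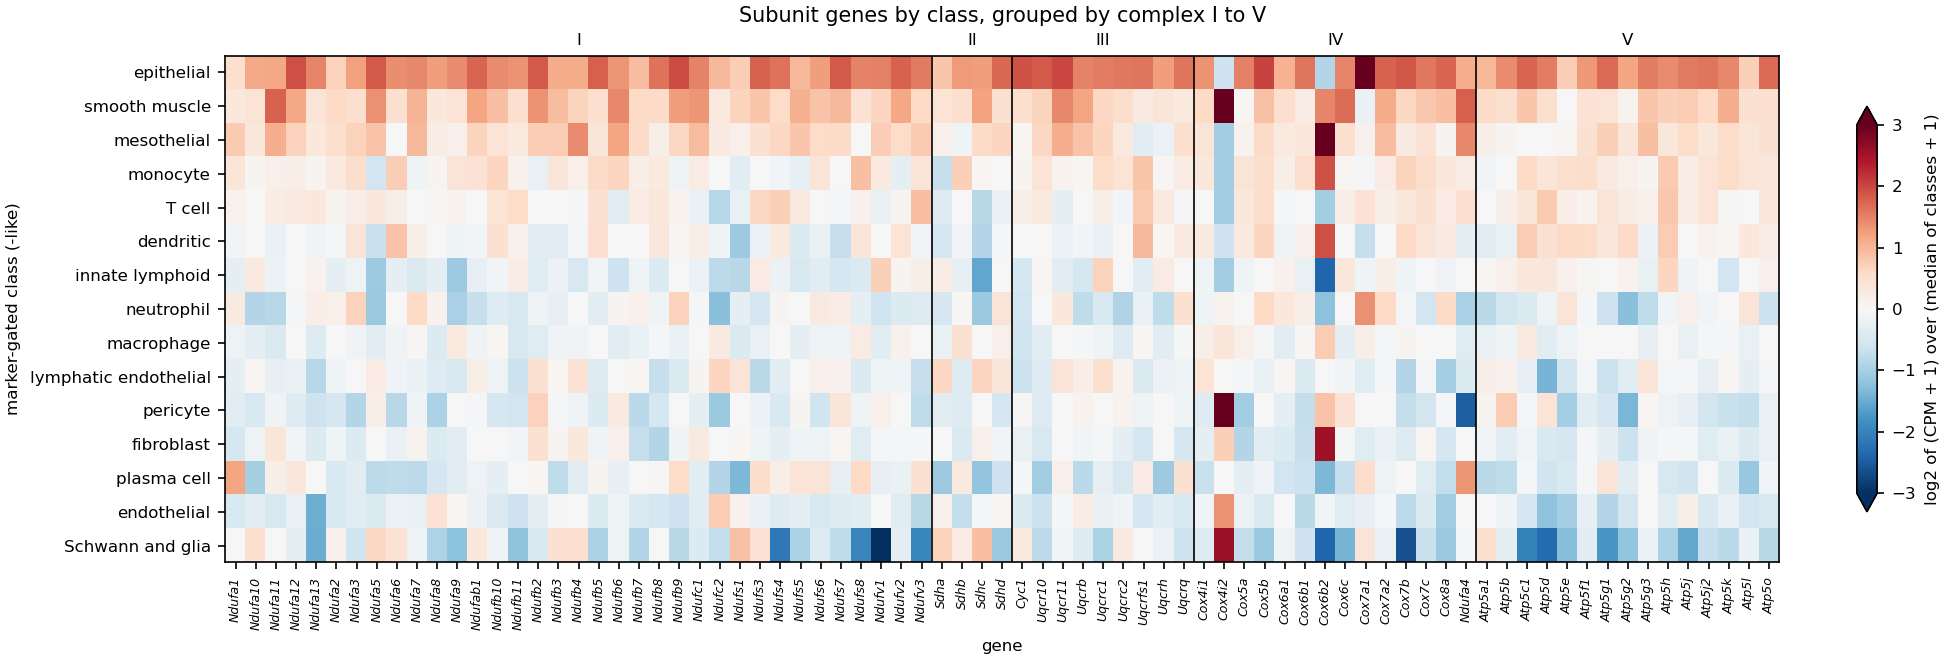
Level of subunit genes with at least 10 CPM in some class, by class and complex, as log2 of (CPM + 1) over (median of all 15 classes + 1), colours ending at 3 either way. The epithelial-like row is above 0 in all but Cox4i2 and Cox6b2, and the isoform genes of complex IV stand out in single rows; the Cox4i2 cell of Schwann and glia-like cells rests on 1 UMI.

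The isoform genes of complex IV departed from this common order. Intervals given below are exact binomial 95% intervals and cover counting error only. Cox7a1, known as the heart and skeletal muscle isoform of its subunit, was at 195 CPM in epithelial-like cells (175, 195 and 229 CPM). In the other classes it lay between 4.81 CPM in dendritic-like and 23.3 CPM in neutrophil-like cells. Smooth muscle-like cells held 7.23 CPM. The 38 tuft-like cells, too few for a class, held 124 CPM, from 38 UMIs. Every epithelial-like library lay above every library of every other class. Cox7a1 made up 18.9% (95% interval 18.7 to 19.1%, 18.8%, 18.4% and 20.4% by library) of the UMIs of Cox7a1 and its common partner Cox7a2 in epithelial-like cells and 1.33% in smooth muscle-like cells. At least 1 Cox7a1 UMI was found in 71.3% of epithelial-like cells and 3.44% of smooth muscle-like cells, at median depths of 13358 and 4535 UMIs, and in 28.2% and 1.34% after thinning each cell to 2000 UMIs. Keratin UMIs were also found in the other classes, with 260 CPM of Krt8, Krt18 and Krt19 together in smooth muscle-like and 972 CPM in neutrophil-like cells beside 10406 CPM in epithelial-like cells. The part of free epithelial RNA in their Cox7a1 level was not tested.

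Pericyte-like cells, 207 cells that wrap small vessels, had a different make-up of complex IV transcripts. Cox4i2, the isoform of the largest nuclear subunit known from lung and from oxygen sensing, was at 484 CPM in them (474, 669 and 233 CPM). Smooth muscle-like cells had 19.9 CPM (14.7, 24.1 and 20.5 CPM), and 4.27 CPM or less was found in every other class except the Schwann and glia-like one, where 1 UMI gave 11.3 CPM. Cox4i2 made up 53.6% of Cox4 UMIs in pericyte-like cells (49.6 to 57.5%; 54.7%, 58.5% and 35.1% by library), 2.33% in smooth muscle-like and 0.0235% in epithelial-like cells. It was found in 60.9% of pericyte-like cells and 0.444% of epithelial-like cells, and in 57.9% and 0.0643% after thinning.

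Ndufa4l2, a paralogue of Ndufa4 known to be induced by low oxygen, followed the same class. It was at 543 CPM in pericyte-like cells (532, 725 and 302 CPM), 29.5 CPM in fibroblast-like (35.8, 54.1 and 12.5 CPM) and 20.8 CPM in smooth muscle-like cells. Ndufa4, a complex IV subunit once assigned to complex I, was lowest in pericyte-like cells, at 46.3 CPM (38.3, 61.4 and 51.8 CPM). Ndufa4l2 thus held 92.1% of the UMIs of the pair there (89.1 to 94.5%; 93.3%, 92.2% and 85.4% by library), against 10.2% in fibroblast-like and 0.0415% in epithelial-like cells. Ndufa4 itself was highest in smooth muscle-like cells, at 907 CPM (893, 1072 and 841 CPM), ahead of mesothelial-like cells at 703 CPM, plasma cell-like cells at 648 CPM and epithelial-like cells at 553 CPM (386, 610 and 643 CPM).

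Cox6b2, known as the testis isoform of its subunit, was at 55.5 CPM in mesothelial-like (46.7, 60.4 and 57.5 CPM) and 29.05 CPM in fibroblast-like cells (37.1, 32.5 and 21.3 CPM). The libraries of these classes did not overlap. Against its partner Cox6b1 it made up 12.5% of UMIs in fibroblast-like and 11.7% in mesothelial-like cells, and 0.182% in epithelial-like cells. Among mesothelial-like cells of 2000 to 6000 UMIs the level was 22.4 CPM. The muscle isoforms Cox6a2 and Cox8b had 35 and 28 UMIs over all barcodes, and smooth muscle-like cells held 0 UMIs of either beside 2186 of Cox6a1 and 9714 of Cox8a (upper exact 95% bounds of their shares 0.169% and 0.0380%).

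**Figure D3:**
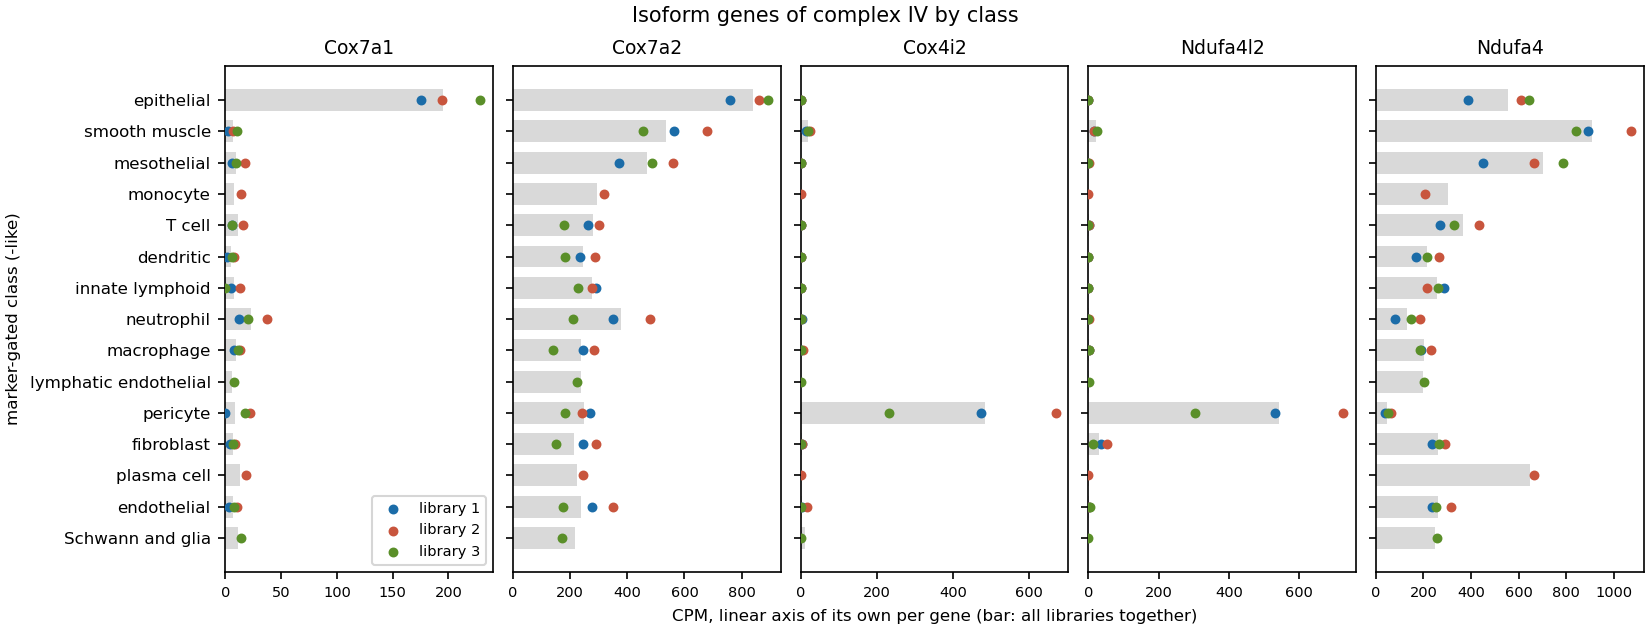
Level of 3 isoform genes of complex IV, Cox7a1, Cox4i2 and Ndufa4l2, and of the partners Cox7a2 and Ndufa4, in 15 classes (CPM, linear axis of its own per gene; bars give all libraries together, points each library with at least 20 cells). Among these 15 classes Cox7a1 is high in epithelial-like cells alone, Cox4i2 and Ndufa4l2 are high in pericyte-like cells, and Ndufa4 is lowest there.

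Promoter sequence was read for 75 of the 91 members from RefSeq (build GRCm38.p6), as 250 bases before and 50 after the start of the gene. Exact words were searched on both strands, no word holds another, and a match only describes the letters. The word of NRF1, a regulator of respiratory genes (GCGC, any base, then TGCGC), was in 25.3% of these members and in 5.19% of 27025 genes. The ETS family word CCGGAAG was in 24% against 9.93%, and the YY1 word AANATGGC in 25.3% against 6.96%, with 12 of its 19 members in complex I. At least 1 of these 3 words was in 64% of the members and 19.4% of all genes. The CCAAT box was in 44% against 41.1%, the GC box GGGCGG in 45.3% against 38.2%, and TATAAA in 8% against 15.7%.

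The 250 bases before the start are shown for 2 isoform pairs whose levels part between classes, Cox7a1 with Cox7a2 and Cox6b1 with Cox6b2, 5′ to 3′ on the strand of the gene. Capitals mark matches of the words above on either strand. Cox7a1 lies at chr7:30183921-30184170 (plus strand), Cox7a2 at chr9:79759854-79760103 (minus strand), Cox6b1 at chr7:30626115-30626364 (minus strand) and Cox6b2 at chr7:4753095-4753344 (minus strand).
Cox7a1: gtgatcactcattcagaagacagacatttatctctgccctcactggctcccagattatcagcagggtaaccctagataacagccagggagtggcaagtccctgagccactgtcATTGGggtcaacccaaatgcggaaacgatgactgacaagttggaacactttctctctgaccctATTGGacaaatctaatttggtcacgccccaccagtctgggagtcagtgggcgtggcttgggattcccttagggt
Cox7a2: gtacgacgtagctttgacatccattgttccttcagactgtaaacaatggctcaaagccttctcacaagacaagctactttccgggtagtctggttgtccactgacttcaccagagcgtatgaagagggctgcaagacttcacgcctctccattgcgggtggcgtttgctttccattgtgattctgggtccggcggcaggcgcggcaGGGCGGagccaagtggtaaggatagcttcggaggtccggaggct
Cox6b1: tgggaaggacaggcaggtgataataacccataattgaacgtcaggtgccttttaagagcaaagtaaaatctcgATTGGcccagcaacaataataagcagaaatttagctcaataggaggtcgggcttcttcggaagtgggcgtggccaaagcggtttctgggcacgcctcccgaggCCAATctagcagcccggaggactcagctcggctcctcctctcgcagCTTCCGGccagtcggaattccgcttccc
Cox6b2: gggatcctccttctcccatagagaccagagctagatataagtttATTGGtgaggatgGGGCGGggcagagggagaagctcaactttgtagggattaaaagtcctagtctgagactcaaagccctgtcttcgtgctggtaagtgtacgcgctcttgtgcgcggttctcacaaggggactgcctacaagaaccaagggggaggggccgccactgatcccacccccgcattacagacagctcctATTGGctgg
The Cox7a1 stretch holds the CCAAT word, as ATTGG, 137 and 74 bases before the start, and none of the NRF1, ETS and YY1 words. Cox7a2 holds a GC box 44 bases before the start. Cox6b1 holds the ETS word 28 bases before its start and CCAAT words at 177 and 74 bases, and Cox6b2 has CCAAT words at 206 and 9 bases and a GC box at 193 bases.

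In pericyte-like cells 5 of 82 members were called higher, against 27.1% of all genes, among them Cox4i2, Ndufa4l2, Ndufb2 and Atp5b. Called lower were 19, against 13.6%, and 29 without library 3.

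In smooth muscle-like cells 49 of 83 members were called higher, against 30.2% of all genes, and 0 lower, against 14.2%. The median log2 fold was 0.65, and 0.17 over all genes tested. At a 2-fold limit 22 members were called. In mesothelial-like cells 34 of 82 were called higher, against 34.4% of all genes, and 0 lower, against 8.87%. The members' share is close to that background, and the medians were 0.53 and 0.34. The count was 20 without library 3 and 14 among cells of 2000 to 6000 UMIs.

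Members were called lower most often in Schwann and glia-like cells, 37 of 81 against 15.6% of all genes, where 68 cells gave 883 subunit UMIs. Endothelial-like cells had 17 of 81 lower, against 7.16%, 27 when the epithelial-like RNA was subtracted, 9 with libraries weighing the same and 4 at a 2-fold limit. In neutrophil-like cells 24 of 82 were lower, against 29.9%, and in plasma cell-like cells 28 of 80, against 66.5%, both near or below the background. The plasma cell-like levels are shares of a total that includes the antibody RNA given above. Plasma cell-like cells were highest for Ndufa1, at 389 CPM, with 383 CPM in library 2, the only library with 20 such cells.

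The 13 subunits encoded in mitochondrial DNA did not follow the same order. Their sum was highest in smooth muscle-like cells, 71781 CPM (55651, 46168 and 91282 CPM), ahead of epithelial-like cells at 64606 CPM (70632, 58491 and 74084 CPM). Library 3 was the only one in which smooth muscle-like cells were higher. In smooth muscle-like cells 12 of 13 genes were called higher, against 30.2% of all genes, and in epithelial-like cells 9 of 13, against 34.6%. Over all libraries together the nuclear subunit sum was 0.582 of the mitochondrially encoded one in epithelial-like and 0.328 in smooth muscle-like cells. By library the nuclear sums were 34601, 39056 and 37844 CPM in epithelial-like and 24765, 27782 and 20984 CPM in smooth muscle-like cells. The ratios of the classes lay closer in libraries 1 and 2 than in library 3. Library 3 gave 900 of 1336 smooth muscle-like but 1637 of 9685 epithelial-like cells, so the pooled ratios mix libraries in unlike parts. Neutrophil-like and plasma cell-like cells had the lowest mitochondrially encoded sums over all libraries, 16744 and 18911 CPM. The neutrophil-like sum varied widely (14454, 7571 and 42364 CPM), and in library 3 it lay above the dendritic-like (36959 CPM) and mesothelial-like (41182 CPM) sums.

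Other genes of the pathway were followed as lists. Genes of the tricarboxylic acid cycle and of pyruvate dehydrogenase, which together supply NADH and succinate, made up 1 list. Of these, 13 of 16 tested were called higher in epithelial-like cells, against 34.6% of all genes. In smooth muscle-like cells 12 were called higher, against 30.2%, with 0 lower in either class. Suclg1, a subunit of succinyl-CoA ligase, had a log2 fold of 2.08 in epithelial-like cells at 181 CPM, and fumarase (Fh1) 1.77 at 59.2 CPM. Of the electron carriers and feeders 8 of 9 tested were higher in epithelial-like cells, against the same 34.6%. Among them the glycerol 3-phosphate dehydrogenase Gpd2 (log2 fold 2.15, 137 CPM) and Etfb of the electron transfer flavoprotein (2.05, 279 CPM) stood above cytochrome c (Cycs, 0.90, 251 CPM). Of the assembly factors outside the naming rule 16 of 26 tested were higher in epithelial-like cells, against 34.6% of all genes, with Coa3 of complex IV assembly at a log2 fold of 1.88, while Foxred1 of complex I assembly was called lower at -0.68.

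The regulators differed among themselves. In epithelial-like cells the nuclear receptor Esrra was called higher (49.6 CPM, log2 fold 1.72) and the factor Nrf1 lower (14.9 CPM, -0.66). In endothelial-like cells, where no complex was called higher, 6 of 8 tested were called higher, against 36.2% of all genes, namely Pprc1, Nrf1, Gabpa, Gabpb1, Tfam and Yy1. Under the limit for testing, the receptor Esrrg was at 6.36 CPM in epithelial-like cells and at most 1.06 CPM elsewhere. The coactivator Ppargc1a was at 4.78 CPM in epithelial-like cells (4.42, 3.37 and 9.76 CPM). Smooth muscle-like cells held 12.1 CPM of it (7.60, 2.15 and 18.9 CPM), with the opposite order in library 2. For Ppargc1b the pooled levels were close, 14.02 CPM for the epithelial-like and 14.46 CPM for the smooth muscle-like class. Every library had more Ppargc1b in epithelial-like cells, 10.9, 9.54 and 33.1 CPM beside 6.65, 6.44 and 22.0 CPM. Of the inhibitor and carrier genes, the ATP synthase inhibitor Atpif1 was at 1022 CPM in epithelial-like cells (951, 1069 and 986 CPM) and smooth muscle-like cells had 298 CPM, while the ADP/ATP carrier Slc25a4 was at 114 CPM in epithelial-like and 573 CPM (705, 789 and 411 CPM) in smooth muscle-like cells. The carrier Slc25a5 had the opposite order, with 479 CPM (470, 479 and 494 CPM) and 201 CPM (183, 210 and 206 CPM).

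Epithelial-like cells were divided by Aqp1, a water channel, and Lcn2, a secreted defence protein, into 3529 Aqp1-high and 2251 Lcn2-high cells. Of 85 members tested 18 were called higher in Aqp1-high cells, against 9.05% of all genes, and 0 lower, against 10.8%. Above 0 on the log2 scale were 83 of 85, with a median of 0.45 beside -0.06 over all genes. The largest difference was in Cox7a1, at 305 CPM in Aqp1-high (339, 291 and 310 CPM) and 50.1 CPM in Lcn2-high cells (45.9, 53.8 and 37.3 CPM), a 6.09-fold difference with no overlap of libraries. Ndufa4 followed at 875 CPM (664, 954 and 870 CPM) against 218 CPM (176, 243 and 196 CPM), or 4.01-fold. Those were the only members past 2-fold. Atp5g1 (1.89-fold), Sdhd (1.78-fold) and Uqcrh (1.72-fold) came next. Complex sums differed by 1.37-fold for complex V to 1.57-fold for complex IV, and the mitochondrially encoded sum by 1.30-fold. Among cells of 2000 to 6000 UMIs 9 members were called higher and 1 lower.

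Smooth muscle-like cells were divided into 195 cells high in Actg2 and Des, genes of visceral muscle, and 450 cells high in Sparcl1 and Mustn1. Of 83 members 29 were called higher in the Actg2 and Des-high cells, against 14.5% of all genes, and 4 lower, against 21.7%. Complex IV differed most, 1.82-fold, with Cox8a at 1502 against 720 CPM and Ndufa4 at 1185 CPM (951, 1281 and 1331 CPM) against 447 CPM (581, 536 and 412 CPM). Ndufv2, of the NADH-binding tip, was 2.72-fold and Atp5g1 2.63-fold higher. Over all libraries together the complex II sum, called neither way, was 0.856-fold and the mitochondrially encoded sum 0.867-fold. By library the mitochondrial share of UMIs was 5.52%, 4.97% and 9.64% in Actg2 and Des-high cells and 5.92%, 4.43% and 8.83% in the others. In libraries 2 and 3 it was thus higher in the Actg2 and Des-high cells. The 29 members were 9 without library 3 and 12 with each library weighing the same. Library 3 gave 387 of the 450 Sparcl1 and Mustn1-high cells but 90 of the 195 Actg2 and Des-high cells. The folds given here therefore mix libraries in unlike parts. Atp5g1 and Cox8a were lowest in library 3 in all 11 classes with at least 20 cells in every library. The part of this mix in the folds was not tested. Median depth was 18071, 7467 and 7281 UMIs in the Actg2 and Des-high cells and 9963, 3479 and 2914 UMIs in the others.

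Among the 4 lower members were Atp5a1 (398 against 607 CPM) and both genes that mark the pericyte-like isoform pattern. Cox4i2 was at 0.526 CPM (0, 0 and 1.37 CPM) against 74.2 CPM (126, 268 and 42.6 CPM). Ndufa4l2 had 0 UMIs against 84.7 CPM. The 8 pericyte markers moved with them, with a summed 269 CPM (167 to 421 CPM by library, 1 marker at 0) in Actg2 and Des-high cells, 1572 CPM (1029 to 1709 CPM, none at 0) in Sparcl1 and Mustn1-high cells and 16123 CPM in pericyte-like cells. Rgs5, the leading pericyte marker, was at 91.6, 319 and 11370 CPM in these cells. The part of pericyte-like cells in the difference was not tested.

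**Figure D4:**
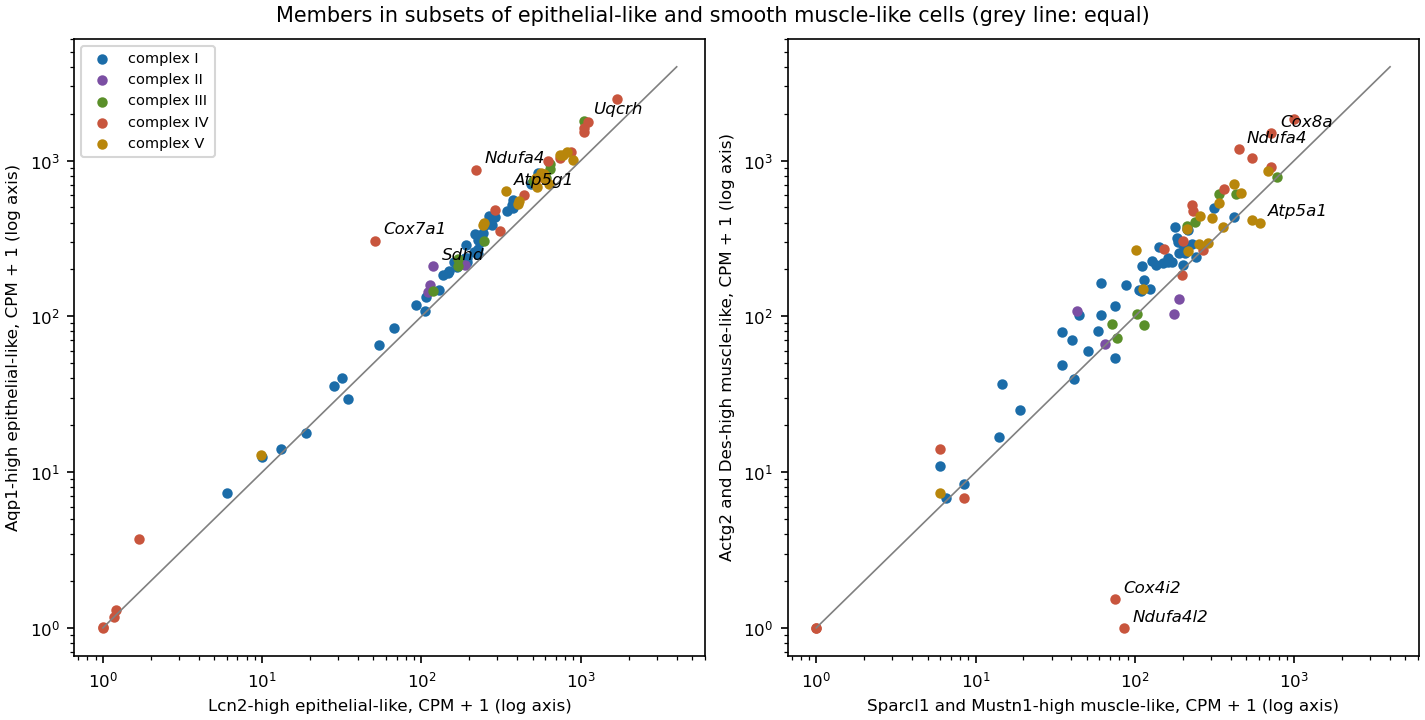
Members as points (CPM + 1, log axes, all libraries together), Aqp1-high against Lcn2-high epithelial-like cells on the left and Actg2 and Des-high against Sparcl1 and Mustn1-high muscle-like cells on the right; the grey line marks equal levels. Cox7a1 and Ndufa4 lie farthest above the line on the left, and Ndufa4l2 and Cox4i2 farthest below it on the right.

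Across libraries the epithelial-like subunit sum differed little, with the highest library 1.13-fold the lowest, but single members shifted in the same way in many classes. Over the 11 classes with at least 20 cells in every library, 78 members were compared. Library 3 was lowest in all 11 classes for 10 members, against 3.28% of 4270 genes: Atp5c1, Atp5e, Cox7b, Sdhb, Atp5j2, Atp5d, Ndufa13, Uqcrq, Atp5g1 and Cox8a. It was highest in all 11 for 3, Sdha, Atp5a1 and Atp5g3, against 13.1%. Library 2 was highest in all 11 for 9 members, against 3.33%, and lowest for Cox6a1 alone, against 1.38%. Library 1 was lowest in all 11 for Atp5g3, against 0.304%, and highest for 0 members, against 0.141%. Cells of library 3 were the shallowest. In epithelial-like cells their median depth, 11976 UMIs, was close to the 12364 UMIs of library 2, while library 1 had 27213 UMIs. The part of depth in these shifts was not tested.

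Subunits of the same complex went opposite ways. Sdhb, in epithelial-like cells, was at 133, 159 and 88.1 CPM in libraries 1, 2 and 3, while Sdha was at 180, 180 and 302 CPM. In fibroblast-like cells Sdhb was at 53.8, 61.1 and 23.7 CPM and Sdha at 77.0, 81.0 and 153 CPM. The c subunit genes parted likewise, with Atp5g1 at 171, 200 and 59.5 CPM and Atp5g3 at 168, 196 and 285 CPM in fibroblast-like cells. Against the median library, library 3 stood at -1.52 on the log2 scale for Atp5g1, -1.21 for Sdhb and -1.35 for Cox5b, and at 0.89 for Sdha and 0.59 for Atp5a1, as medians over the 11 classes.

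**Figure D5:**
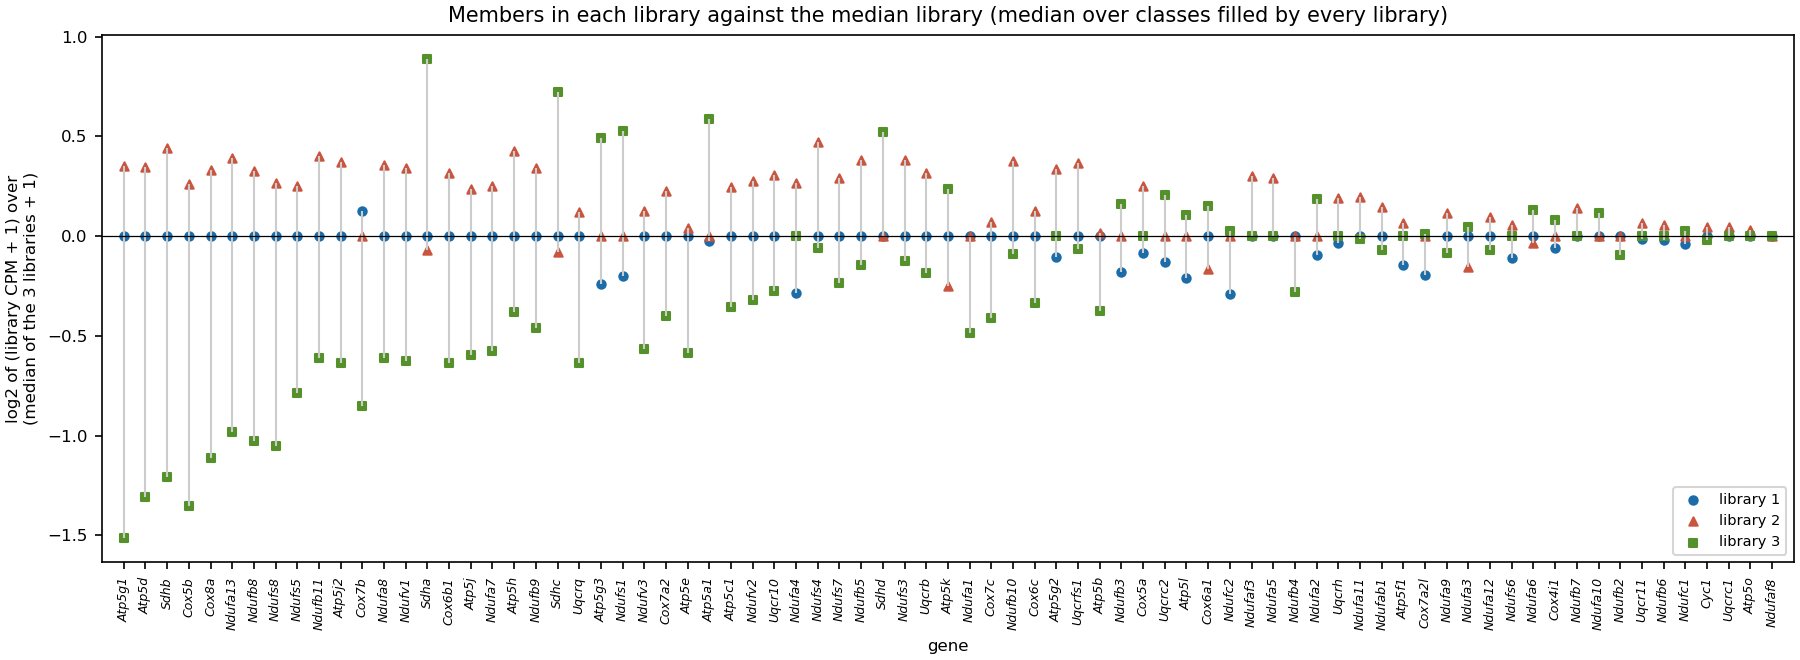
Members in libraries 1 to 3, as log2 of (library CPM + 1) over (median of the 3 libraries + 1), median over the 11 classes that every library fills, ordered by the range between libraries. Library 3 (squares) is the lowest for the genes on the left, from Atp5g1 to Cox7b, and the highest for Sdha, Sdhc, Atp5g3, Ndufs1 and Atp5a1.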

How the data were processed

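Single-cell suspensions from 3 pools of 10 gallbladders were sequenced as 3 libraries. The authors deposited 1 table of UMI counts per gene and barcode, made with Cell Ranger 6.1.1 on mm10 per the submitters' processing notes; the values are raw counts, and strand use in counting is not given in the sources used here. Barcodes below 300 genes or above 20% mitochondrial UMIs were dropped, and Scrublet (scanpy 1.11.5, score limit 0.25, expected rate 6%, seed 0) removed doublets. A cell entered a class when it held at least 3 distinct markers at 0.3 of the reference level or more, and was set aside as mixed when another class reached 0.5 of the best. The gate limits were set after counts were seen, and the members and lists were chosen with earlier results of these data known. Counts were summed per class and library and given as CPM. No test was run, since libraries carry no group name. Aqp1-high cells held at least 5 Aqp1 and at most 5 Lcn2 UMIs per 10000, Lcn2-high cells at least 20 Lcn2 and at most 2 Aqp1. Muscle-like cells were divided at 50 for Actg2 with Des and 30 for Sparcl1 with Mustn1, with a ratio of 2. Named by rule were the isoform genes, complex II, the 3 most abundant subunits of each other complex, the 8 members with the largest and the 4 with the smallest ratio of the highest to the median class, and the assembly factors with the most and the least UMIs; other genes were chosen after their values were seen. The call rule was tested on simulated data. Per-class depth limits precision, with 55 to 9685 cells a class. Counts and sums cover all members, but 1 member is not reported by name here and is not drawn.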

Additional observations from a re-analysis of the deposited data

How the results depend on the processing

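The counts and complex folds were recomputed under 18 alternatives, among them other cell filters, no doublet removal, a gate of 4 markers, other denominators and the libraries left out in turn. Cells of 2000 to 6000 UMIs and leaving out microglia-marked cells were chosen after seeing the data. Of the values for counts of calls, complex folds and lists, 485 kept their call or stayed within 1.5 times and 35 did not; the cause was not tested. Leaving out the microglia-marked cells changed none of these values' calls. Among the remaining recomputed values 105 were counted as the same and 35 as moved.

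Cells of 2000 to 6000 UMIs gave mesothelial-like folds of 1.06 for complex I, 0.940 for complex III and 0.934 for complex IV, the latter pair reversed, and 1.37 for complex V in smooth muscle-like cells. Members called in mesothelial-like cells were then 14 higher and 8 lower, in Aqp1-high cells 9 higher and 1 lower, and in Actg2 and Des-high cells 7 lower. A 2-fold limit left 22 members higher in smooth muscle-like, 8 in mesothelial-like, 3 in pericyte-like, 2 in Aqp1-high and 10 in Actg2 and Des-high cells, and 22 lower in Schwann and glia-like, 9 in plasma cell-like, 7 in neutrophil-like, 7 in pericyte-like and 4 in endothelial-like cells. A minimum of 1 CPM called 1 member lower in epithelial-like cells, and 50 CPM called 2 lower in Actg2 and Des-high cells. With libraries weighing the same, 9 members were lower in endothelial-like and 12 higher in Actg2 and Des-high cells. With epithelial RNA subtracted, 27 were lower in endothelial-like cells, and the mesothelial-like folds were 1.56 for complex III, 1.62 for complex IV and 1.55 for complex V.

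With each library left out in turn, the mesothelial-like fold ranged from 1.34 to 1.65 for complex I and from 1.20 to 1.56 for complex IV, and the smooth muscle-like fold from 1.45 to 1.60 for complex V. Members called higher ranged from 20 to 39 in mesothelial-like and from 9 to 37 in Actg2 and Des-high cells, and members called lower from 17 to 29 in pericyte-like and from 0 to 1 in mesothelial-like cells. No paired analysis was possible because each group is 1 library and the libraries carry no sample name. Library 3, at a median of 2288 UMIs a cell, limits the values of small classes, and levels resting on a few UMIs, such as Cox4i2 in Schwann and glia-like cells, cannot be ordered.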
